A study of Mus musculus with 38 samples.

Results

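The mir-183 cluster is a group of 3 microRNA (miRNA) genes, mmu-mir-183, mmu-mir-96 and mmu-mir-182, that lie side by side on mouse chromosome 6. Its members were taken as the rows of these 3 names among the 689 miRNA rows that the deposited read counts list for reads matching the genome. All 3 were found, each as 1 row per precursor, so that the 5p and 3p arms of a hairpin were not counted apart. The counts came from small RNA sequencing of sperm from 38 C57BL6/J male mice. The first 2 letters of a group's name give the diet of the dam until weaning at 21 days, and the last 2 give that of the male offspring afterwards, up to their death at an age of 11 to 13 weeks. CT is a control diet with 20% protein and PR a protein-restricted diet with 8% protein. The groups were thus CTCT (n = 10, control throughout), CTPR (n = 9, restricted only after weaning), PRCT (n = 9, restricted only before weaning) and PRPR (n = 10, restricted throughout). No litter gave more than 1 mouse to a group, and brothers on different diets after weaning came from 8 litters of control dams and 9 of restricted dams.

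miRNAs are short RNAs cut from a hairpin precursor that pair with messenger RNAs, mainly through the seed near their 5′ end, and lower their stability or translation. The hairpins of the mir-183 cluster are known to be transcribed together, and are highly expressed in sensory cells of the retina and inner ear, and also found in other tissues. mir-96 is known for seed mutations that cause hearing loss, and mir-182 and mir-183 are abundant in photoreceptors.

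In build GRCm38.p6, the mouse assembly also called mm10, the cluster spans chr6:30165918-30169737 on the minus strand, with Mir183 first in the direction of transcription (chr6:30169668-30169737), then Mir96 (chr6:30169446-30169551) and then Mir182 (chr6:30165918-30165992). Mir183 and Mir96 are 116 bases apart, and Mir96 and Mir182 are 3453 bases apart. No other annotated gene overlaps the span. It is intergenic, with the protein-coding gene Nrf1 ending 12459 bases away at lower coordinates and the long non-coding RNA gene Rncr4 starting 3155 bases away at higher coordinates. The mature sequences (RefSeq, 5′ to 3′) are shown because the members are told apart by their seeds, bases 2 to 8, which are in capitals.
mmu-miR-183-5p: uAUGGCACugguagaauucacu
mmu-miR-96-5p: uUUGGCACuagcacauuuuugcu
mmu-miR-182-5p: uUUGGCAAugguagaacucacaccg
mmu-miR-183-3p: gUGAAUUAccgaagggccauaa
mmu-miR-96-3p: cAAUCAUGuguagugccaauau
mmu-miR-182-3p: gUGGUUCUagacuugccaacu

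The seeds of the 5p arms are alike but not the same. Counted from 1 at the 5′ end, miR-96-5p differs from miR-182-5p by the single seed substitution C8A and from miR-183-5p by the single substitution U2A. miR-182-5p differs from miR-183-5p by U2A and A8C. Over a longer stretch, miR-182-5p and miR-183-5p share 18 of their first 22 bases without a gap, and miR-96-5p shares 12 with miR-182-5p and 13 with miR-183-5p. The RefSeq table held 2 other mature miRNAs with a seed of the cluster. mmu-miR-1271-5p (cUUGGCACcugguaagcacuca, chromosome 13) has that of miR-96-5p, and mmu-miR-3475-5p (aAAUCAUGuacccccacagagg, chromosome X) has that of miR-96-3p. Neither precursor was listed with reads in any of the 38 mice. The 3p arms of the members share no seed with each other. No member was among the 3 miRNA names listed for reads that did not match the genome.

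All 3 members were detected in sperm, mir-182 most and mir-96 least. Levels are given on 2 scales, as reads per 1000000 genome-matching reads (RPM), which also moves with how much miRNA a library held, and as the share of the genome-matching miRNA reads of the same mouse. A miRNA read stands for a whole small RNA, so rows were compared without division by length. Over the 38 mice, mir-182 made up 0.388% ± 0.0640 (SD) of the miRNA reads, mir-183 0.275% ± 0.0447 and mir-96 0.0644% ± 0.0346. Together the cluster held 0.727% ± 0.112 of the miRNA reads, between 0.440% and 0.914% in single mice. By mean share mir-182 ranked 35th, mir-183 50th and mir-96 120th of the 689 miRNA rows. The first-ranked row, mir-148a, held 20.5% ± 6.31.

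The order within the cluster was nearly the same in every mouse. mir-182 had more reads than mir-183, and mir-183 more than mir-96, in 36 of 38 mice. The exceptions were mouse 07C3 (CTCT), with 23 reads of mir-183 and 22 of mir-182, and mouse 02A8 (CTPR), with 26 and 25. Both had few miRNA reads, and these differences of 1 read are within counting error. The ratio of mir-182 to mir-183 reads ranged from 0.957 to 2.14 with a median of 1.41. The ratio of mir-182 to mir-96 was less even, from 2.49 to 15.2 with a median of 5.87 in the 35 mice with mir-96 reads. In the list of all miRNA rows, the direct neighbours of a member in mean share were mir-30c-2 (0.409% ± 0.181) and mir-7a-1 (0.382% ± 0.188) around mir-182, mir-196b (0.283% ± 0.0842) and mir-677 (0.266% ± 0.191) around mir-183, and mir-345 (0.0652% ± 0.0220) and mir-541 (0.0613% ± 0.0292) around mir-96. None of these neighbours differed from its member by more than the SD over mice. mir-182 and mir-183 varied less between mice than their neighbours did.

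The miRNA content of the libraries differed widely, and this bears on every RPM value below. The reads matching the genome numbered between 4465281 and 7612603 per mouse, whereas the miRNA reads among them ranged from 7805 to 378918, or from 1584 to 55516 RPM. The 9 mice of the 5 litters whose identifiers start with 02 to 14 held at most 7121 RPM of miRNA. They fall in all groups (3 CTCT, 2 CTPR, 2 PRCT and 2 PRPR). Of the 29 mice of later litters, 28 were above them and 1, mouse 51O3 (PRPR), was within their range with 6573 RPM. The split at litter number 14 was not planned before the data were seen, and later litters are those with higher numbers. What the litter numbers stand for in time or handling is not given in the sources used here. A test chosen after seeing the data compared log2 miRNA RPM between groups, and no adjusted P was under 0.05. CTPR minus CTCT was 0.75 (exact permutation test, two-sided, P = 0.273, 0.998 after Benjamini-Hochberg adjustment over 4 comparisons), and 0.68 in the later litters (exact permutation test, P = 0.0396, adjusted 0.159). These permutation tests treated the mice as independent and did not use the pairing of littermates, so their P values ignore it. The miRNA lists used as markers of cell types were listed to different extents. As a summed share of the miRNA reads, the spermatogenic list (9 of 12 names listed, led by mir-34c) held 1.49 to 6.18%, the epithelial list (5 of 5, led by mir-200c) 1.77 to 4.83%, the muscle and stroma list (7 of 8, led by mir-143) 4.01 to 15.4% and the blood list (8 of 10, led by mir-223) 0.0908 to 0.551%. Of the liver list only mir-122 was listed, at 0 in 19 mice and at most at 0.105%. In such bulk samples, fewer cells of a type and less RNA per cell cannot be told apart.

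The share of mir-183 overlapped between the groups. In the CTCT group its share ranged from 0.214% to 0.342% (median 0.289%), in the CTPR group from 0.195% to 0.333% (median 0.286%), in the PRCT group from 0.274% to 0.331% (median 0.297%) and in the PRPR group from 0.153% to 0.2996% (median 0.248%). The means were 0.286% ± 0.0462 (SD, n = 10), 0.273% ± 0.0415 (n = 9), 0.298% ± 0.0233 (n = 9) and 0.244% ± 0.0479 (n = 10). The PRCT mice lay closest together, and the lowest PRPR mouse, 51O3, was below every other mouse of the study. Its share of 0.153% rested on 60 reads, with a Wilson 95% interval of 0.119 to 0.197% that covers counting error only. mir-183 had reads in all 38 mice, from 23 to 739.

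The share of mir-182, too, overlapped between the groups. It ranged from 0.215% to 0.507% in CTCT (median 0.418%), from 0.320% to 0.498% in CTPR (median 0.363%), from 0.332% to 0.460% in PRCT (median 0.405%) and from 0.257% to 0.463% in PRPR (median 0.394%). The group means of 0.402% ± 0.0835 (SD), 0.388% ± 0.0575, 0.393% ± 0.0415 and 0.367% ± 0.0683 differed by less than 1 SD of any group. The lowest share belonged to mouse 07C3, with 22 reads, and all groups overlapped. Without mice 07C3, 35F2, 31A3 and 08G5, whose class totals and genome-matching total disagree, the lowest share was 0.257%.

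mir-96, the least abundant member, varied most. Its share went from 0 to 0.104% in CTCT (median 0.0653%), from 0 to 0.138% in CTPR (median 0.0865%), from 0.0246% to 0.0840% in PRCT (median 0.0541%) and from 0 to 0.120% in PRPR (median 0.0595%). The means were 0.0654% ± 0.0331 (SD), 0.0818% ± 0.0480, 0.0519% ± 0.0194 and 0.0590% ± 0.0310. No mir-96 read was counted in 3 mice, each with few miRNA reads. A count of 0 allows a share of up to 0.0384% in mouse 02A8 (0 of 7805 miRNA reads), 0.0293% in mouse 07C3 (0 of 10228) and 0.0157% in mouse 14A5 (0 of 19072), taking 3 reads as the limit. The 4 mice with the highest shares were 57P1 and 47I2 (CTPR, 0.138% and 0.135%), 40H3 (PRPR, 0.120%) and 35F1 (CTPR, 0.117%), which were also the 4 with the most mir-96 reads (between 237 and 524). The study's supplementary list places mouse 47I2 in CTCT, whereas the labels, followed here, place it in CTPR.

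**Figure D1:**
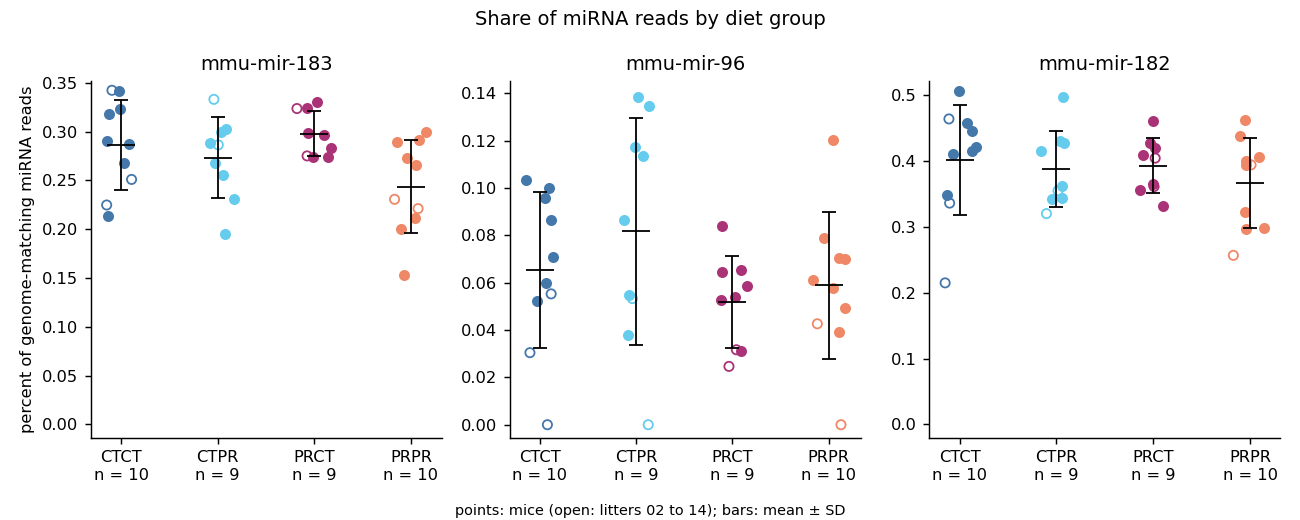
Share of the genome-matching miRNA reads (y axis, percent) of mir-183, mir-96 and mir-182 in each diet group (x axis). Points are mice, open for litters 02 to 14, and bars give the mean and SD. The groups overlap for each member, and the 3 mice with mir-96 at 0 are all from litters 02 to 14.

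The spread between mice of a group was larger than counting error explains on either scale. With the miRNA total as the base, the chi-square statistic per degree of freedom within groups was 6.59 for mir-183, 7.78 for mir-182 and 10.7 for mir-96, where counting error alone gives about 1. With the genome-matching reads as the base it was 112, 165 and 71.0. The coefficient of variation over all mice was 66.3%, 69.7% and 114% in RPM, and 16.3%, 16.5% and 53.8% as a share of the miRNA reads.

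In RPM the members spanned a wide range and the CTPR group had the highest means. mir-183 was at 42.6 ± 30.3 RPM (SD) in CTCT, 63.7 ± 36.5 in CTPR, 41.1 ± 23.6 in PRCT and 35.6 ± 25.7 in PRPR. mir-182 was at 61.9 ± 43.1, 98.2 ± 61.6, 54.8 ± 32.9 and 52.3 ± 34.4 RPM, and mir-96 at 11.4 ± 9.25, 26.2 ± 25.1, 7.95 ± 5.67 and 9.99 ± 10.7 RPM. The lowest and highest mice were 3.56 and 109 RPM for mir-183, 3.41 and 191 RPM for mir-182, and 0 and 76.8 RPM for mir-96. The groups overlapped for each member. In each group the mice of litters 02 to 14 were among the lowest. mir-183 averaged 11.5 RPM in the mice of litters 02 to 14 and 55.9 RPM in the later litters, mir-182 15.1 and 82.2 RPM, and mir-96 1.49 and 17.5 RPM. These litters were set apart by their low miRNA content, and each member had an r of at least 0.95 with that content. The lower RPM of the members there is thus not a separate result. Among the later litters, mouse 51O3 was the lowest for mir-183 and mir-182.

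**Figure D2:**
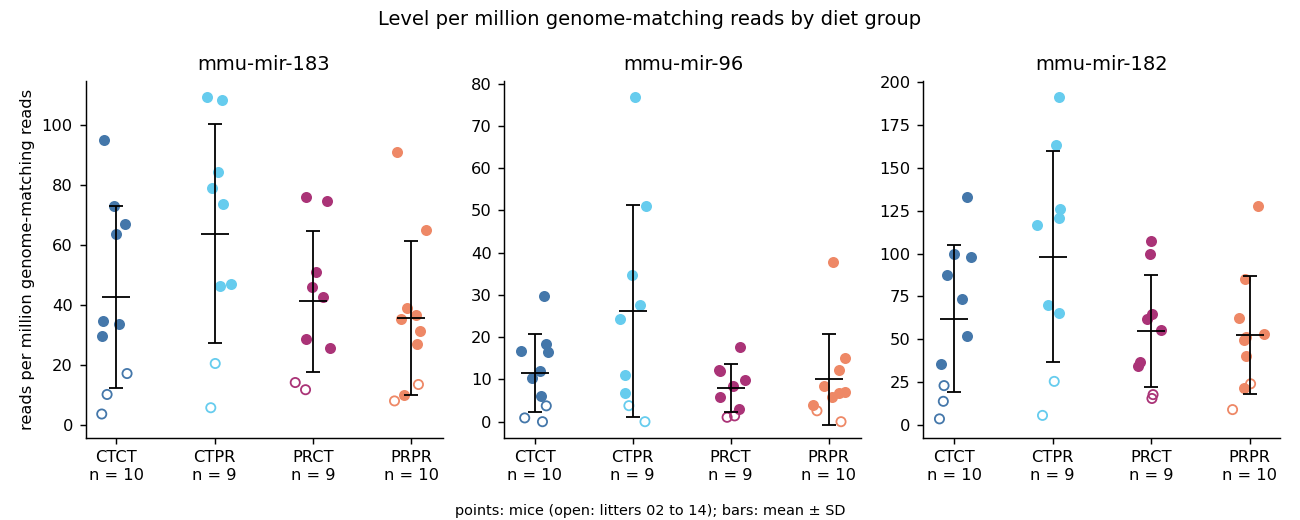
Reads per 1000000 genome-matching reads (y axis) of the members in each diet group (x axis), with points for mice, open for litters 02 to 14, and bars for the mean and SD. The CTPR means are the highest, at 63.7 RPM for mir-183, 26.2 RPM for mir-96 and 98.2 RPM for mir-182, and the open points sit at the lower end of each group.

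The design asks whether restriction after weaning changes the cluster in sperm, and whether that depends on the diet before weaning. Each contrast was tested with edgeR's quasi-likelihood test over all rows with a mean count of at least 10, 7002 rows on the RPM scale and 200 miRNA rows on the share scale, with Benjamini-Hochberg adjustment over these rows. No member passed an adjusted P of 0.05 in any of the 5 contrasts on either scale. On the RPM scale the percentage of all rows that passed was 0.0714% for CTPR minus CTCT, 0.0143% for PRPR minus PRCT, 0% for PRCT minus CTCT, 0.0143% for PRPR minus CTCT and 0.957% for the interaction. In PRCT minus CTCT, where edgeR called 0 rows, 415 had an unadjusted P under 0.05 and DESeq2 called 72. On the share scale edgeR called 0 of the miRNA rows (0%) in every contrast, with 10, 2, 7, 5 and 7 rows at an unadjusted P under 0.05 in the same order. DESeq2, run on the same rows with its own size factors and so not on the share scale, also called 0 in every contrast. The counts of 0 therefore include every miRNA of the marker lists that was among these 200 rows.

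For restriction after weaning in offspring of control dams (CTPR minus CTCT), the fitted log2 fold change in RPM was 0.67 (SE 0.55, edgeR adjusted P = 0.783) for mir-182, 0.58 (SE 0.53, adjusted P = 0.801) for mir-183 and 1.20 (SE 0.85, adjusted P = 0.765) for mir-96. Their 95% intervals ran from -0.44 to 1.77, from -0.50 to 1.66 and from -0.53 to 2.93. With litter as a block the values were 0.25 (SE 0.35), 0.30 (SE 0.37) and 0.38 (SE 0.75), each with an edgeR adjusted P of 1. The study's supplementary list gives the mice of litter 47I the opposite groups. With that grouping the values were 0.55 for mir-182, 0.50 for mir-183 and 0.82 for mir-96. In the main fit the median over the 3 members, 0.67, lay at the median over all 7002 rows, also 0.67, and near that of the 200 miRNA rows, 0.79. With TMM normalisation factors, which take out such a common shift, the median of all rows fell to 0.15 and that of the members to 0.09. As a share of the miRNA reads the differences were -0.05 (SE 0.14) for mir-182, -0.08 (SE 0.14) for mir-183 and 0.31 (SE 0.37) for mir-96, each with an edgeR adjusted P of 0.972. The intervals on this scale were -0.34 to 0.24, -0.36 to 0.21 and -0.44 to 1.06.

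For restriction after weaning in offspring of restricted dams (PRPR minus PRCT), the fitted RPM differences were -0.07 (SE 0.55) for mir-182, -0.21 (SE 0.53) for mir-183 and 0.33 (SE 0.85) for mir-96, and with litter as a block -0.15 (SE 0.32), -0.33 (SE 0.34) and -0.03 (SE 0.52). Their median without the block of -0.07 stood beside 0.09 over all rows. The share of mir-183 had the smallest unadjusted P of any member in any contrast. It was lower in PRPR than in PRCT by a log2 difference of -0.29 (SE 0.14, 95% interval -0.57 to -0.01, edgeR P = 0.0440, adjusted P = 0.993), and 2 of the 200 miRNA rows (1%) had an unadjusted P under 0.05 in this contrast. The difference does not pass the correction over miRNA rows. With litter as a block it was -0.28 (edgeR P = 0.0268, adjusted P = 0.972), where 8 of the 200 rows had an unadjusted P under 0.05. Without litters 02 to 14 it was -0.26 (edgeR P = 0.0820, adjusted P = 0.707). Leaving out each mouse in turn gave -0.33 to -0.23 (edgeR P from 0.0277 to 0.0955). Over the other alternatives the unadjusted P ran from 0.0046 to 0.153 (edgeR or DESeq2). mir-182 differed by -0.10 (SE 0.14) and mir-96 by 0.20 (SE 0.38) on the share scale.

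For the diet before weaning (PRCT minus CTCT), the share scale gave -0.04 (SE 0.14) for mir-182, 0.06 (SE 0.14) for mir-183 and -0.38 (SE 0.38) for mir-96, with edgeR adjusted P values of 0.960, 0.949 and 0.920. For restriction throughout (PRPR minus CTCT) the shares differed by -0.14 (SE 0.14), -0.23 (SE 0.14) and -0.19 (SE 0.37), each with an adjusted P of 0.998. In RPM, PRCT minus CTCT was -0.18 (SE 0.55), -0.05 (SE 0.53) and -0.52 (SE 0.85) beside a median of -0.15 over all rows, and PRPR minus CTCT -0.24 (SE 0.53), -0.26 (SE 0.52) and -0.19 (SE 0.83) beside -0.04. The interaction, the effect of restriction after weaning in offspring of control dams minus that in offspring of restricted dams, was 0.04 (SE 0.20), 0.21 (SE 0.20) and 0.12 (SE 0.53) in the same order, with an edgeR adjusted P of 0.980 for each. In RPM the interaction was 0.73 (SE 0.77) for mir-182, 0.79 (SE 0.75) for mir-183 and 0.87 (SE 1.20) for mir-96 beside a median of 0.57 over all rows, and with litter as a block 0.39 (SE 0.48), 0.63 (SE 0.50) and 0.41 (SE 0.99). The contrasts share groups, so their values are not independent of each other. On the share scale the intervals of mir-182 and mir-183 reached no further than 0.57 from 0 in the 4 contrasts of 2 groups, while those of mir-96 reached as far as -1.15 in PRCT minus CTCT.

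**Figure D3:**
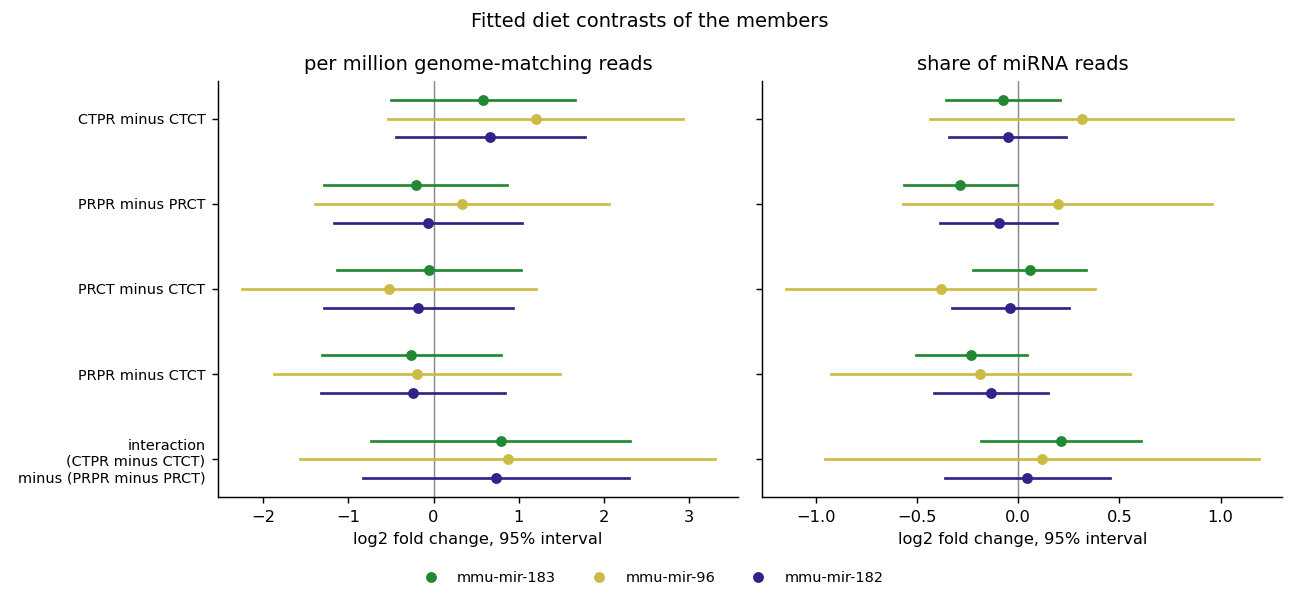
Fitted log2 fold changes (x axis) with 95% intervals for the 5 diet contrasts (rows), in reads per 1000000 genome-matching reads (left) and as a share of miRNA reads (right). Each interval on the left includes 0, and on the right that of mir-183 in PRPR minus PRCT ends just below 0, at -0.01, with an adjusted P of 0.993.

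Within litters, the brothers restricted after weaning mostly had the lower share of mir-183, though no difference passed the correction above. Of 8 litters of control dams, 7 had the lower share in the CTPR brother (mean log2 difference -0.07 ± 0.12, SD), and of 9 litters of restricted dams, 8 had it in the PRPR brother (-0.29 ± 0.32). The differences in the control-dam litters were small, from -0.19 to 0.19, and those in the restricted-dam litters ran from -0.84 in litter 51O to 0.13 in litter 39F. These pairs are the same mice as in the contrasts. In RPM the same pairs pointed up in 6 of 8 litters of control dams and down in 7 of 9 of restricted dams. mir-182 was lower in share in 5 of 8 (-0.14 ± 0.23) and 5 of 9 litters (-0.08 ± 0.26), and mir-96 was higher in 5 of 8 (-0.12 ± 1.03) and 6 of 9 (-0.07 ± 1.28). Litters 02A and 14A, whose restricted mice had 0 reads of mir-96 (set to 0.5 reads for the logarithm), gave its lowest differences, -2.25 and -3.23.

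**Figure D4:**
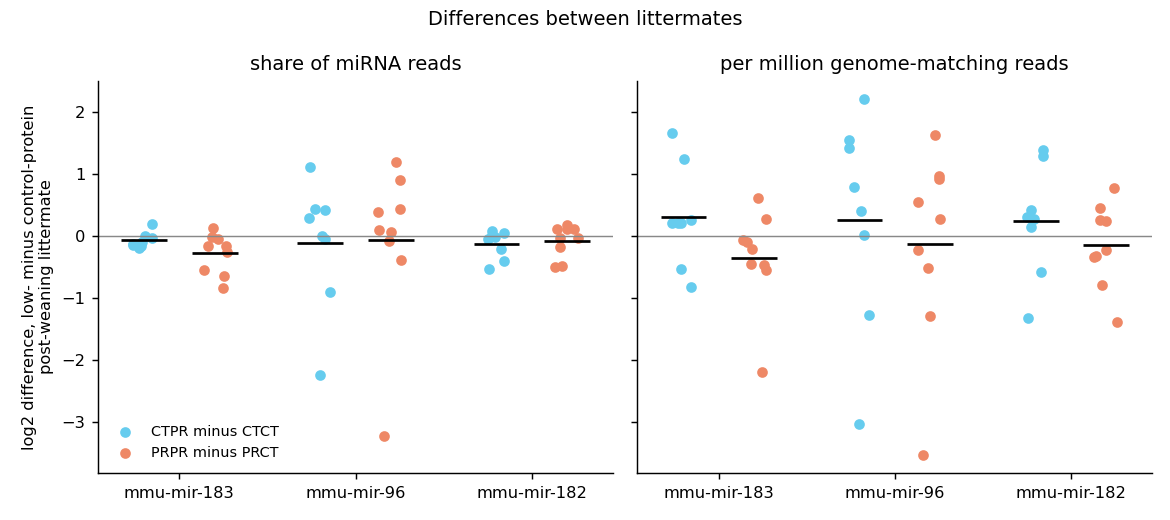
Log2 difference between the littermate restricted after weaning and the one on control diet (y axis) for each member (x axis), as share of miRNA reads (left) and per 1000000 genome-matching reads (right). Points are litters, 8 of control and 9 of restricted dams, and lines are means, from -0.29 to -0.07 on the left. The 2 lowest mir-96 points on each side are litters 02A and 14A.

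Littermates resembled each other in the cluster. The deviations of the 2 brothers from their group means, over 17 pairs, had a Pearson r of 0.79 for mir-183, 0.83 for mir-182 and 0.84 for mir-96 in log2 RPM, and of 0.47, 0.33 and 0.71 in log2 share. These are descriptions, and brothers also share the litter number and so the low miRNA content of litters 02 to 14.

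The members varied together in RPM but less so as shares. Over the 38 mice the Pearson r between log2 RPM of mir-183 and mir-182 was 0.99, between mir-182 and mir-96 0.96 and between mir-183 and mir-96 0.93. Each also had an r of at least 0.95 with the total miRNA RPM of the mouse, which all rows share. As shares, the r was 0.55 for mir-183 and mir-182, 0.65 for mir-182 and mir-96 (0.36 in the 29 mice of later litters) and 0.05 for mir-183 and mir-96. Of the 93 other miRNA rows with a mean count of at least 100, those most like mir-183 in log2 share were let-7g (r = 0.59), mir-125b-1 (0.53) and let-7d (0.44), beside a median r of 0.10 over these rows. Most like mir-182 were mir-200a (0.60), mir-1839 (0.60) and mir-148b (0.55), which fell to 0.23, 0.42 and 0.07 in the later litters. mir-96 was under that count and was not compared in this way.

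The share of mir-96 moved with the miRNA content of the library, whereas that of mir-183 did not pass the same test. In a test added after seeing the data, the log2 share was fitted on log2 miRNA RPM beside the diet group. The slope of mir-96 was 0.61 (SE 0.10, 95% interval 0.40 to 0.82, edgeR adjusted P = 9.4e-06), which is 1.53 times the share for each doubling of the miRNA content, and the 12th highest of 200 rows. mir-182 had a slope of 0.10 (SE 0.04, adjusted P = 0.0488) and mir-183 of 0.01 (SE 0.04, 95% interval -0.07 to 0.09, adjusted P = 0.854). Such slopes were common, as 51% of the miRNA rows passed, 52 rising and 50 falling, so that 2 of 3 members passing is close to the share of all rows. The miRNA total is both the denominator of the share and part of the content.

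The slopes of mir-96 and mir-182 did not hold as calls within litters. With litter as a block the slope of mir-96 was 0.43 (SE 0.30, edgeR adjusted P = 0.607) and that of mir-182 0.01 (adjusted P = 0.959). Without litters 02 to 14 they were 0.38 (edgeR P = 0.0140, adjusted P = 0.127) and 0.04 (edgeR adjusted P = 0.825). Calls were lost across the miRNA rows in general. Of the 200 rows, 3 passed with the litter block and 6 without litters 02 to 14, against 102 in the main fit. The call of mir-182 was also lost when any of 25 of the 38 mice was left out, whereas that of mir-96 held without each mouse in turn, with a slope of 0.56 to 0.64. With the miRNA content as a covariate, the share of mir-96 in CTPR minus CTCT was -0.20 (SE 0.28) in place of 0.31. In composition, mir-96 made up 3.81% ± 3.33 (SD) of the cluster's reads in litters 02 to 14 and 10.1% ± 3.48 in later litters, mir-183 43.2% ± 5.71 and 36.5% ± 3.82, and mir-182 53.0% ± 3.42 and 53.4% ± 2.85.

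**Figure D5:**
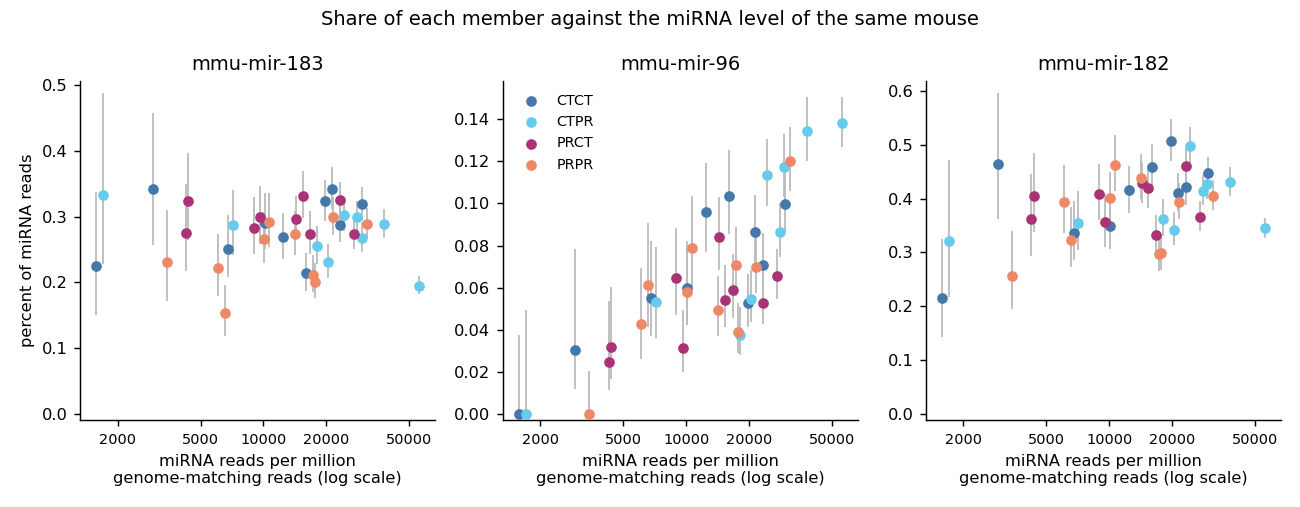
Share of miRNA reads (y axis, percent) of each member against the miRNA reads per 1000000 genome-matching reads of the same mouse (x axis, log scale). Points are mice coloured by diet group, and grey lines are Wilson 95% intervals for counting error. mir-96 goes from 0 in 3 mice with few miRNA reads to 0.138% in the mouse with the most, while mir-183 stays between 0.153% and 0.342%.

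Across mice, the share of mir-96 rose with the muscle and stroma list and the epithelial list. With the blood list it fell over all mice, but not in the later litters. Its log2 share had an r of 0.77 with the summed share of the muscle and stroma list (0.60 in the later litters), of 0.53 with the epithelial list (0.34) and of -0.48 with the blood list (0.16), and near 0 with the spermatogenic list (0.11). The muscle and stroma list summed to 4.01 to 10.0% in litters 02 to 14 and to 7.16 to 15.4% in the later litters. Most of this list was mir-143, with a mean share of 8.59% beside a median sum of 9.62% over all mice. Counts of 0 for mir-96 were set to 0.5 reads, and its mean count was under the 100 asked of pattern neighbours. No reference r over other miRNA rows was computed for the lists. mir-182 had an r of 0.57 with the muscle and stroma list (0.24) and of 0.47 with the epithelial list (0.33), and mir-183 of 0.03 (0.08) and 0.27 (0.34). With the blood list the r was -0.45 for mir-182 (-0.31) and -0.15 for mir-183 (-0.35), and with the spermatogenic list it was near 0 for mir-182 (-0.31) and 0.04 for mir-183 (-0.11). By diet group the muscle and stroma list had medians of 9.89% in CTCT, 10.7% in CTPR, 10.5% in PRCT and 9.46% in PRPR, and the epithelial list of 3.97%, 4.01%, 3.74% and 3.33%. The blood list had medians of 0.192%, 0.174%, 0.155% and 0.209% in the same order, and the spermatogenic list of 3.16%, 3.28%, 3.66% and 3.99%. The paper reports high sperm purity in every diet group from methylation at imprinting control regions, and a representative RNA trace without ribosomal RNA peaks. The part of these cell types in the levels of the cluster was not tested.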

How the data were processed

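Small RNA from sperm of 38 mice was analysed. The authors mapped the reads to mm10 (per the labels) and to small RNA databases with SPORTS 1.0, and deposited read counts per class and class member, not normalised and not pooled. Aligner settings, database versions and the treatment of reads that fit several miRNAs are not given in the sources used here. Groups follow the labels. For the littermates 47I1 and 47I2 the study's supplementary list gives the opposite groups, which was run as an alternative.

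The members and lists were chosen with earlier results of these data known. Rows of mean count at least 10 were tested with edgeR 4.0.16 (glmQLFit, glmQLFTest) in R 4.3.3, all groups in 1 fit, with the genome-matching total or the miRNA total as library size. Alternatives were TMM, DESeq2 1.42.0, no filter, filterByExpr, other library sizes, litter as a block, and leaving out mice. The script was tested on simulated data. Named rows were the members, the 3 rows nearest in pattern (mean count at least 100, r over mice), the neighbours in level, and seed and marker miRNAs. Same-litter mice are paired by the labels, which carry the litter. No pair of libraries of a group agreed within counting noise (lowest chi-square per degree of freedom over the miRNA rows 11.2), which checks only for copied counts. Each mouse counted as 1 sample, as the labels list it. Wilson intervals and limits for counts of 0 cover counting error only, since reads carry no molecular identifiers, whereas edgeR's intervals include the spread between mice. Sequences are from RefSeq (GRCm38.p6). Python 3.11.15 and scipy 1.17.1 were used.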

Additional observations from a re-analysis of the deposited data

Results flagged for a closer look

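One result stood apart from its group. In the PRPR group, mouse 40H3 had 37.9 RPM of mir-96, and the next highest mouse had 15.1 RPM. The gap was 0.601 of the group's whole range, above Dixon's 95% critical value for 10 samples. Of the 24 group and member combinations examined on both scales, 1 was picked out in this way, and chance picks out about 1 in 20. The share of mir-96 in the same mouse, 0.120% of the miRNA reads, was the highest of its group but not picked out. Mouse 40H3 also had the highest miRNA content of the PRPR group, 31471 RPM. Over all mice the RPM of mir-96 had an r of 0.95 with that content, so the flagged value is not separate from it.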

How the results depend on the processing

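No member passed in any diet contrast under any alternative, leaving out each mouse included (0 members called in 491 combinations of contrast and setting, main settings included). Of 303 log2 fold changes under the other alternatives, 14 changed sign, none of them called. DESeq2 ran on the same rows with its own size factors, so its values are on neither the RPM nor the share scale. For the rows of the RPM scale, PRCT minus CTCT of mir-183 became 0.0840 with TMM, 0.000690 with DESeq2 and 0.158 without litter 47I. That of mir-182 became 0.0199 without litter 47I. PRPR minus CTCT of mir-96 became 0.0897 without litter 47I, and PRPR minus PRCT of mir-96 -0.0291 with litter as a replicate block. For the rows of the share scale, CTPR minus CTCT became 0.0239 for mir-182 with DESeq2 and -0.204 for mir-96 with the miRNA content as covariate. The interaction of mir-96 became -0.0262 with the other grouping of litter 47I, -0.0750 with the litter block and -0.359 with the covariate, and that of mir-182 -0.0503 with the block, -0.0251 without litters 02 to 14 and -0.01998 with the covariate. Leaving out each mouse in turn, RPM values ranged from -0.32 to 0.12 (mir-182) and -0.20 to 0.57 (mir-96) for PRPR minus PRCT, from -0.21 to 0.16 (mir-183) and -0.363 to 0.0199 (mir-182) for PRCT minus CTCT, and from -0.727 to 0.0897 (mir-96) for PRPR minus CTCT, and shares from -0.11 to 0.0035 (mir-182) for PRCT minus CTCT, and from -0.0025 to 0.30 (mir-96) and -0.0227 to 0.0867 (mir-182) for the interaction. The slope on miRNA content was called in 102 of 200 miRNA rows, 3 with the litter block and 6 without litters 02 to 14. That of mir-96 was 0.43 with the litter block and 0.38 without litters 02 to 14, neither called. That of mir-182 was not called with no filter (0.0963), filterByExpr (0.0963), the litter block (0.0126), without litters 02 to 14 (0.0389), without mice 07C3, 35F2, 31A3 and 08G5 (0.0663), without litter 47I (0.0944) or with its other grouping (0.0943). That of mir-183 became -0.0128 without those 4 mice. Leaving out each mouse, the slopes ran from 0.56 to 0.64 (mir-96), 0.0625 to 0.118 (mir-182) and -0.00827 to 0.0402 (mir-183). Apart from the slopes, the litter block changed no call of a member. For the rows tested on the RPM scale, the number called in the interaction, 67 of 7002, became 98 with DESeq2, 25 with TMM and 0 with the litter block. It was 8 without the 4 mice and 1 without litters 02 to 14. Without a filter 2703 of 638403 rows were called, and with filterByExpr 1 of 8719. The counts without a filter thus have a far larger base than those of the main fit. In CTPR minus CTCT, 5 of 7002 became 73 with DESeq2, 2256 of 638403 without a filter and 3 without litter 47I. It became 0 with TMM, filterByExpr, the litter block, without the 4 mice or without litters 02 to 14. In PRPR minus PRCT, PRCT minus CTCT and PRPR minus CTCT, DESeq2 called 70, 72 and 66 of 7002 rows. There edgeR without a filter called 209, 198 and 267 of 638403 rows. The causes were not tested. Counting error is widest in the mice with the fewest miRNA reads, 07C3 and 02A8, with 22 to 26 reads of mir-183 and mir-182 and 0 of mir-96.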
